A study of Mus musculus with 2 samples.

Results

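The genes described here were the replication-dependent histone genes, taken as every symbol that starts with Hist1h, Hist2h, Hist3h or Hist4h and is not marked as a pseudogene. They numbered 67 of the 31053 genes in both count matrices, with 6 linker (H1), 18 H2A, 18 H2B, 12 H3 and 13 H4 genes. The family was chosen by name, but after the low count of one of its H2A genes, Hist1h2ap, in the creatine library was known. Ratios of creatine over control in these genes are therefore given as a description.

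Histones are the proteins that DNA is wound around. Pairs of H2A, H2B, H3 and H4 form the core of the nucleosome, and H1 binds the linker DNA between cores. A cell that copies its DNA needs new histones at the same time, so the replication-dependent genes are transcribed in S phase from clusters of nearly identical copies. Their mRNAs have no introns and end in a conserved stem-loop bound by the stem-loop binding protein (Slbp), where other mRNAs carry a poly(A) tail. Replacement histones such as H2afz and H3f3b are made throughout the cycle from ordinary polyadenylated mRNAs.

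Tumor-infiltrating immune cells (TIIs) came from B6 mice carrying subcutaneous B16-OVA tumors, a mouse melanoma line that expresses ovalbumin, harvested on day 14 according to the labels, although a methods passage on TII profiling names day 10. Control mice were labelled as given PBS and creatine mice received intraperitoneal creatine at 10.5 mg per animal per day. The protocol field of the control record also names the creatine injection, and the groups used here follow the treatment label and the title. For each group 4 tumors were combined by the methods (another passage names 5 mice), live CD45.2+ cells were sorted, 10000 cells were loaded, and 1 3′ droplet library was made. With 1 library per group no comparison of the treatments can be tested, mice within a pool cannot be separated, and treatment and library cannot be told apart. Intervals are 95% and cover counting error only.

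After cells with over 25% mitochondrial UMIs were left out, the control library held 7241 of 7649 cells and the creatine library 6229 of 6503 cells, and the median cell had 7688 and 8475 UMIs. The libraries shared 30 cell barcodes. Cells were gated on marker genes, and cells at or above 10 UMIs of 22 S-phase and 22 G2M-phase genes per 10000 UMIs were called dividing. No histone gene was used in any gate. CD8 T cells, gated on Cd3d, Cd3e, Cd3g, Trac, Cd8a and Cd8b1, gave 1325 dividing cells of 2371 in the control library (55.9%, exact interval 53.9% to 57.9%) and 1105 of 1968 in the creatine library (56.1%, 53.9% to 58.4%). These dividing cells held 22776659 and 22164866 UMIs, and levels are given per 1000000 UMIs (CPM) or per 10000 UMIs. The median depth of a dividing CD8 T cell was 14731 UMIs in the control and 17939 UMIs in the creatine library.

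In dividing CD8 T cells the 67 genes together gave 126949 UMIs (control) and 65531 UMIs (creatine), or 55.7 (55.4 to 56.0) and 29.6 (29.3 to 29.8) of every 10000 UMIs. Hist1h2ap alone made most of that gap. It gave 70930 UMIs (3114 CPM) in the control and 17453 UMIs (787 CPM) with creatine, or a log2 ratio of creatine over control of -1.98 (-2.01 to -1.96). The other 66 genes summed to 24.6 (24.4 to 24.8) and 21.7 (21.5 to 21.9) UMIs per 10000, a log2 ratio of -0.18 (-0.20 to -0.16). Only 68 genes of the genome had at least as many control UMIs as Hist1h2ap, itself included. Of the 10862 genes with at least 50 UMIs over both libraries, 38 had a ratio as low as that of Hist1h2ap or lower, Hist1h2ap included, and the others of those had at most 22822 control UMIs.

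Hist1h2ap (ENSMUSG00000094777) encodes a core H2A and lies at chr13:21833026-21833507 on the minus strand (mm10, the GRCm38 assembly, with GENCODE M21 models), in the large Hist1 cluster. Of the 67 genes, 54 lie on chromosome 13, 10 on chromosome 3, 2 on chromosome 11 and 1 on chromosome 6. A search of the gene models for the stem-loop (a 6-base inverted repeat that opens with GG, around a loop of 4 bases that contains TT, on the transcript strand) found it in 45 of the 67 genes. In the last 500 bases it was present in 49.3% of these genes and in 0.224% of 55383 other genes. The models of the remaining 22 genes contain no such stem-loop. Several of these models are short (381 bases for Hist1h2bl, 393 for Hist1h2ai), and bases beyond a model were not searched, so the genes themselves may carry one. The sites below show the 14 bases before the stem-loop in lower case and the stem-loop itself in capitals, 5′ to 3′ on the transcript. They are shown because the stem-loop is what sets this family's mRNAs apart, and because the bases before it differ between Hist1h2ap with its near copy Hist1h2ao and the other H2A genes shown. Hist1h2ap is at chr13:21833026-21833507 (-), Hist1h2ao at chr13:21810465-21810944 (+), Hist1h2ae at chr13:23570517-23571220 (-), Hist1h2ab at chr13:23751126-23751598 (+), Hist1h2ac at chr13:23681467-23683948 (-), Hist1h3f at chr13:23544052-23545312 (+), Hist1h3e at chr13:23561534-23562369 (-), Hist1h4h at chr13:23531050-23531519 (+) and Hist1h4d at chr13:23581598-23582735 (+).
Hist1h2ap: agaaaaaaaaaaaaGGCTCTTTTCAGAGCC
Hist1h2ao: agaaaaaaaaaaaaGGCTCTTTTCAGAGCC
Hist1h2ae: gtaaaaaaaacaaaGGCTCTTTTCAGAGCC
Hist1h2ab: ttaaccaaaacaaaGGCTCTTTTCAGAGCC
Hist1h2ac: acttcaaacccaaaGGCTCTTTTCAGAGCC
Hist1h3f: acgtaaaccaaaacGGCTCTTTTAAGAGCC
Hist1h3e: acgtaaaccaaaacGGCTCTTTTAAGAGCC
Hist1h4h: cctacaaaaccaaaGGCCCTTTTCAGGGCC
Hist1h4d: acccaaaaaccaaaGGCCCTTTTCAGGGCC

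The stem-loop differed by class. All 11 H4 sites open with GGCCCT or GGTCCT, while the sites of H1, H2A, H2B and H3 genes open with GGCTCT. Hist1h2ap has a run of 12 A directly before the stem-loop, and its model ends 3 bases after it. Its near copy Hist1h2ao carries the same run and gave only 10 and 14 UMIs. Hist1h2ae has a run of 8 A in the 50 bases before the stem-loop. No other member with a stem-loop in its model has a run that long there. The library primer is a stretch of T that anneals to A, and the part of these A runs in the counts was not tested. UMIs in a 3′ library are counted once per captured molecule and are not scaled by gene length. The capture of each histone mRNA was not measured, so the counts of different histone genes are not read here as relative levels. Hist1h3f and Hist1h3e carry the same site and share sequence beyond it.

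A gene was called lower or higher when its CPM ratio was past 1.5-fold and the interval of the ratio left out 1. In dividing CD8 T cells 57 of the 67 genes had at least 50 UMIs over both libraries. Of these, 17 were called lower in the creatine library, where 4.00% of all 10862 genes were, and 6 were called higher, where 3.46% of all genes were. These shares belong to the contrast in which the family was first noticed and carry no weight as evidence. The same shares of all genes stand beside the calls by class given below, which are a description too. The median log2 ratio was -0.15 over the 57 genes and 0.04 over all genes tested. Without Hist1h2ap it was -0.14. The other 10 genes had few UMIs here. Hist1h1t, the testis-specific linker histone, Hist1h2bq and Hist1h2ba had 0 UMIs in both libraries, and Hist1h2ao, Hist1h2ah, Hist2h2aa2, Hist1h2aa, Hist1h3h, Hist2h3c1 and Hist2h3c2 had at most 31 UMIs in all. Every core class held both genes with a ratio above and genes with a ratio below 1.

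**Figure D1:**
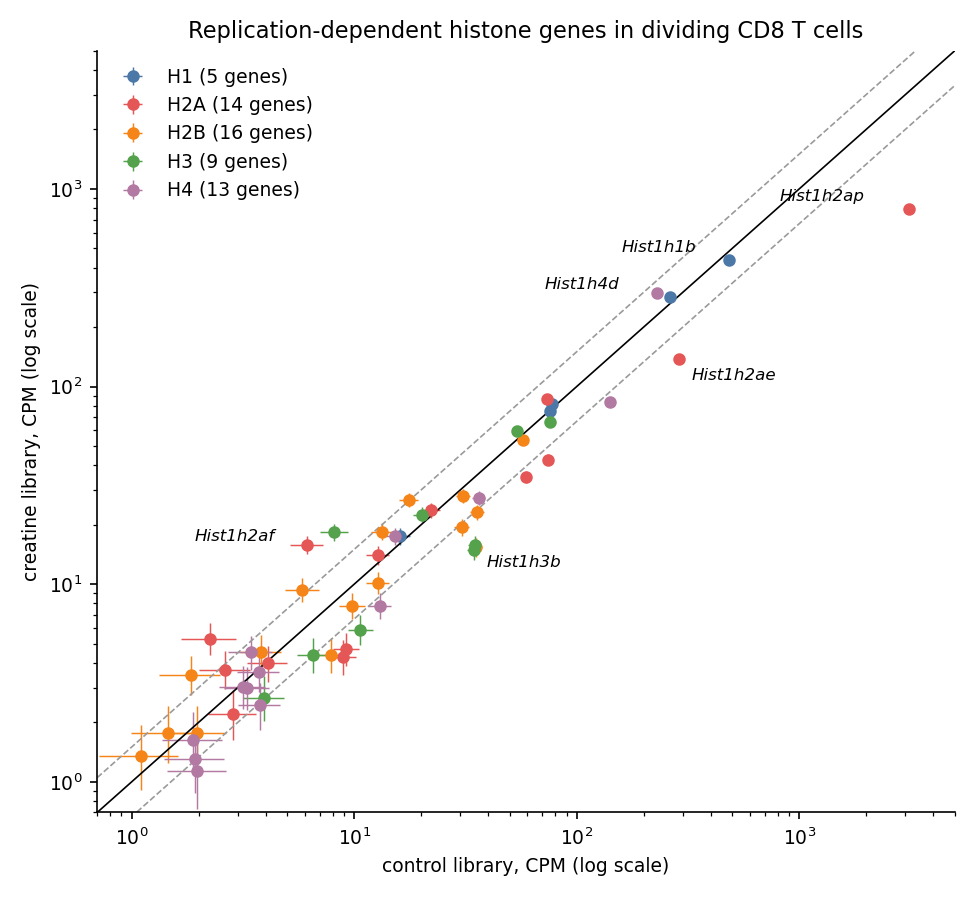
CPM (UMIs per 1000000 UMIs) of 57 histone genes in dividing CD8 T cells of the control library (x axis) and the creatine library (y axis), both on log scales, with 95% Poisson intervals and 1 color per class. The solid line marks equal CPM and the dashed lines a 1.5-fold ratio. Hist1h2ap lies farthest below the line, at 3114 and 787 CPM.

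The H1 genes, which encode the linker histones, were the class with the narrowest range. Hist1h1b gave 11060 UMIs in the control and 9690 UMIs with creatine, for a log2 ratio of -0.15 (-0.19 to -0.11). Hist1h1e gave 5981 and 6284 UMIs, a ratio of 0.11 (0.06 to 0.16). Hist1h1c gave 1756 and 1803 UMIs, 0.08 (-0.02 to 0.17). The highest ratio of the class was that of Hist1h1a, with 365 and 388 UMIs and a log2 ratio of 0.13 (-0.08 to 0.34). Of the 5 H1 genes tested 0 were called. Of all genes 4.00% were called lower and 3.46% higher, so 0 calls among 5 genes is near those shares. The summed class stood at 9.17 and 8.95 UMIs per 10000.

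The H2A genes held 66.05% of the family's UMIs among control cells and 39.5% among creatine cells. Of 14 tested, 6 were called lower and 2 higher. Hist1h2ae gave 6568 UMIs in the control and 3058 UMIs with creatine, for a log2 ratio of -1.06 (-1.13 to -1.001). Hist2h2ac, an H2A gene of the smaller cluster on chromosome 3, gave 1677 and 1926 UMIs, 0.24 (0.14 to 0.33). Hist1h2af had the highest ratio, from 140 to 349 UMIs, with a log2 of 1.36 (1.07 to 1.65). The lower calls also included Hist1h2ab (1686 and 945 UMIs), Hist2h2aa1 (1345 and 775 UMIs), Hist1h2ai (210 and 104 UMIs) and Hist1h2ad (202 and 95 UMIs). The other higher call was Hist1h2an, with 51 and 117 UMIs. Without Hist1h2ap the 13 H2A genes tested had a median log2 ratio of -0.04, and 7 of them lay below 0. That median was -0.76 when at least 200 UMIs per gene were asked for and -0.55 after cells were thinned to 2000 UMIs. Their sum, with the untested genes included, was 5.67 and 3.81 UMIs per 10000, a log2 ratio of -0.57 (-0.61 to -0.53), with 6568 and 3058 of those UMIs from Hist1h2ae. The H2A genes thus ranged from -1.98 to 1.36 in the same cells.

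The H2B genes, whose products pair with H2A, were mixed as well. Hist1h2bj gave 1301 and 1185 UMIs (log2 -0.10, -0.21 to 0.02) and Hist1h2bm 703 and 621 UMIs (-0.14, -0.30 to 0.02). Hist1h2bb gave 812 and 513 UMIs, a ratio of -0.62 (-0.79 to -0.46). The lowest was Hist1h2br, the neighbour of Hist1h2ap, with 801 and 340 UMIs and a log2 ratio of -1.20 (-1.38 to -1.01). The highest among genes with at least 200 UMIs was Hist1h2bn, with 133 and 207 UMIs and 0.68 (0.36 to 1.00). Of 16 tested, 4 were called lower and 3 higher, and the class summed to 2.67 and 2.29 UMIs per 10000.

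Among the H3 genes, 3 of 9 tested were called lower and 1 higher. Hist1h3c gave 1731 and 1470 UMIs (log2 -0.20, -0.30 to -0.10). Hist1h3e gave 1228 and 1320 UMIs (0.14, 0.03 to 0.26), while Hist1h3f, which shares the end of its model with Hist1h3e, gave 791 and 349 UMIs (-1.14, -1.33 to -0.96). Hist1h3b gave 788 and 330 UMIs, the lowest ratio of the class at -1.22 (-1.41 to -1.03). Hist1h3i gave 185 and 407 UMIs, the highest at 1.18 (0.92 to 1.44). The ratios of this class spanned more than 2 log2 units between genes with 592 and 1118 UMIs over both libraries.

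The H4 genes encode the same protein from many copies. Hist1h4d gave 5231 UMIs in the control and 6563 UMIs with creatine, for a log2 ratio of 0.37 (0.31 to 0.42). Hist1h4h gave 3218 and 1851 UMIs, -0.76 (-0.84 to -0.68). Hist1h4i gave 826 and 605 UMIs, -0.41 (-0.56 to -0.26). Of 13 tested 4 were called lower and 0 higher, but the class sum differed little, at 4.59 and 4.53 UMIs per 10000 (log2 -0.02, -0.06 to 0.02).

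**Figure D2:**
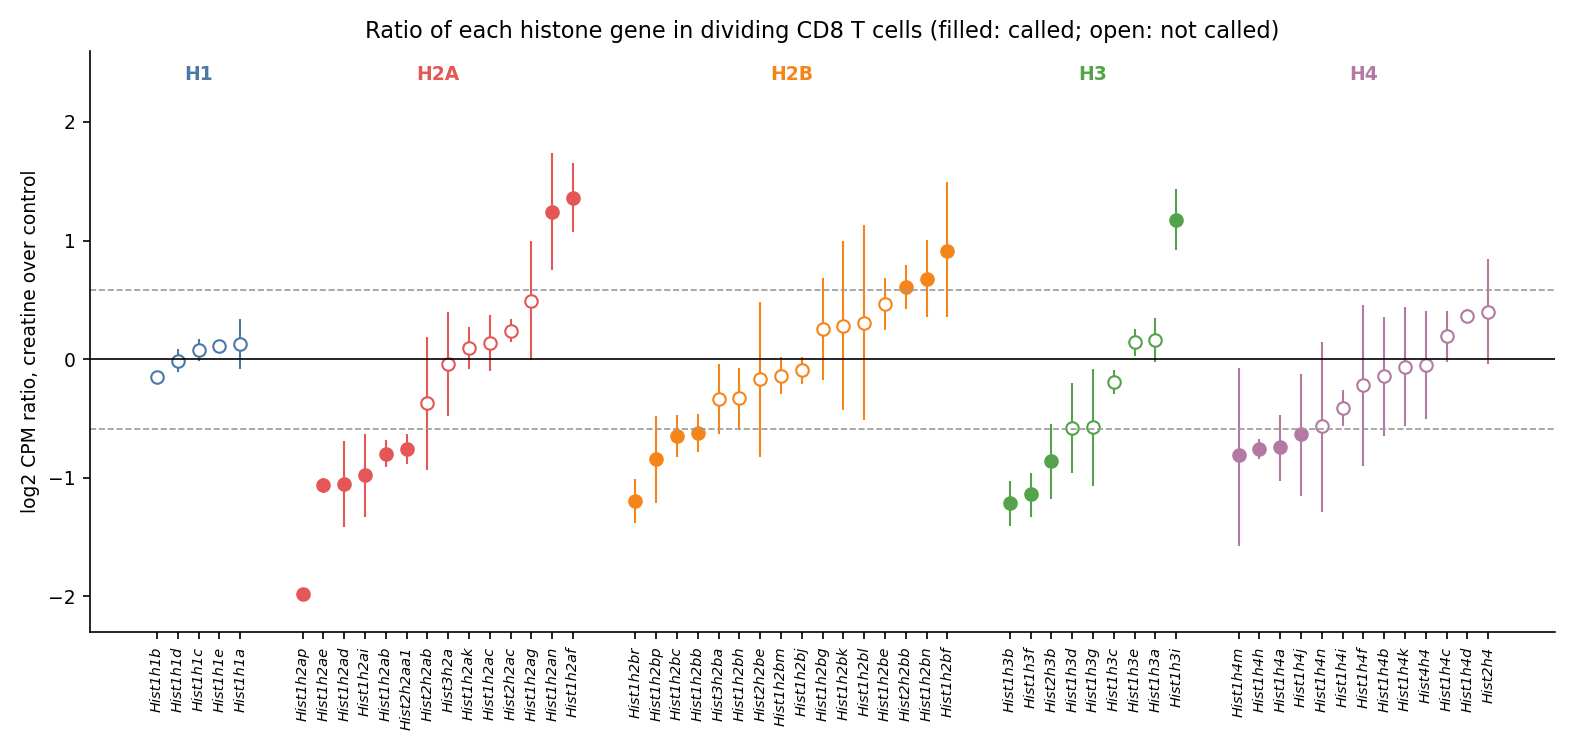
The log2 CPM ratio of creatine over control for each of 57 histone genes in dividing CD8 T cells, ordered within class, with the exact 95% interval of the count split. Filled points are past 1.5-fold (dashed lines) with an interval that leaves out 0. H1 ratios lie between -0.15 and 0.13, while H2A ratios run from -1.98 to 1.36.

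Genes of the histone supply line outside the family were compared in the same cells. Of all 10862 genes tested 4.00% were called lower and 3.46% higher, so 0 calls in a list this short is near those shares. Of 9 replacement histones and variants outside the naming rule, 0 were called, with a median log2 ratio of 0.02. H2afz gave 34101 and 32722 UMIs (-0.02, -0.04 to 0.00) and H3f3b 31570 and 31117 UMIs (0.02, 0.00 to 0.04). Of 15 genes of histone mRNA transcription and 3′ end processing 0 were called, with a median of 0.12. Slbp, which binds the stem-loop, gave 3486 and 3859 UMIs (0.19, 0.12 to 0.25), and Nono 4455 and 4359 UMIs (0.01, -0.05 to 0.07). The highest of that list was Upf1, which acts in histone mRNA decay, at 0.42 (0.29 to 0.54), and it was named after its value was seen. Of 12 histone chaperone and acetylation genes 0 were called, with a median of 0.10. The chaperone Nasp gave 4895 and 4621 UMIs (-0.04, -0.10 to 0.01) and Ssrp1, a subunit of the FACT chaperone, 4326 and 4418 UMIs (0.07, 0.01 to 0.13). The 22 S-phase genes and the 22 G2M-phase genes that define the dividing gate had medians of 0.15 and -0.01, also with 0 called.

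Per cell, over all dividing CD8 T cells together, Hist1h2ap was lower in the creatine library at the median and at the upper percentiles. In the control library the median dividing CD8 T cell held 2.84 Hist1h2ap UMIs per 10000, the upper quartile was 39.4 and the 90th percentile 83.2. In the creatine library these values were 1.18, 9.85 and 21.2 UMIs per 10000. The highest creatine cell, at 63.4 per 10000, lay below the 90th percentile of the control cells. For the other 66 genes the medians were 6.09 and 6.26 per 10000 and the 90th percentiles 61.9 and 53.2. At least 1 Hist1h2ap UMI was found in 76.7% of dividing CD8 T cells in the control (exact interval 74.3% to 78.9%) and 64.1% (61.2% to 66.9%) in the creatine library. After each cell was thinned to 2000 UMIs, with 16 and 6 shallower cells left out, the shares were 51.4% and 38.0%. Non-dividing neutrophils, which should not make these mRNAs, had a Hist1h2ap UMI in 41.8% and 19.7% of cells, and in 18.7% and 2.48% after thinning, at median depths of 7089 and 9279 UMIs.

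Droplets take up RNA set free by other cells, so levels in non-dividing cells were read against those neutrophils. Hist1h2ap stood at 95.7 CPM (67 UMIs) and 28.7 CPM (55 UMIs) in non-dividing neutrophils, and at 64.3 CPM (186 UMIs) and 15.5 CPM (46 UMIs) in non-dividing CD8 T cells. The latter are at or below the neutrophil level in CPM and, on that reference and scale alone, are read as background. Droplets take up such RNA whatever the depth of the cell, so CPM also depends on that depth. Over all control cells the median depth was 6823 UMIs in neutrophils and 14015 UMIs in C1q-high Mono/TAM. UMIs per droplet were not compared. Dividing cells gated as melanoma stood lower, with 1 Hist1h2ap UMI in 9 control cells (4.38 CPM) and 0 UMIs in 7 creatine cells. Other non-dividing types differed. The intervals of the non-dividing CD8 T cells were 55.4 to 74.2 CPM and 11.4 to 20.7 CPM. C1q-high Mono/TAM stood below them in the control, at 42.9 CPM (37.7 to 48.7). In the creatine library its 11.9 CPM (8.74 to 15.9) overlapped them. Conventional CD4 T cells overlapped them in both libraries, at 51.5 CPM (15 UMIs, 28.8 to 84.9) and 25.6 CPM (11 UMIs, 12.8 to 45.9). NK cells stood at 118 CPM (162 UMIs, 100 to 137) and 22.7 CPM (76 UMIs, 17.8 to 28.4). They were above the CD8 T cells in the control and overlapped the neutrophils in both libraries. Sums of the marker lists used to gate other cell types also differed in the dividing CD8 T cells. The C1qa, C1qb and C1qc sum was 63.8 CPM in the control and 28.7 CPM in the creatine library, the cDC list 32.4 and 9.29 CPM, the NK list 177 and 109 CPM, the melanoma list 17.3 and 10.3 CPM and the macrophage list 16.3 and 10.2 CPM. All genes of these 5 lists had UMIs in both libraries. The CD8 T gate takes only cells with at most 1 UMI each of the macrophage and B cell lists. The sums of those lists are therefore limited by the gate. The pDC marker and the neutrophil and B cell lists each stayed under 1 CPM, with 1 of the 3 B cell genes at 0 in each library and 1 of the 3 neutrophil genes at 0 in the creatine library. The T cell list stood at 3336 and 3920 CPM and Cd8a with Cd8b1 at 1331 and 1580 CPM. Whether the UMIs of the other types' lists came from other cells or from the CD8 T cells themselves was not tested. Their part in the histone values was not tested either.

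The family followed division in both libraries. Dividing and non-dividing CD8 T cells (under 5 S-phase and G2M-phase UMIs per 10000) were compared within each library, with a 2-fold threshold. In the control library 46 of 50 histone genes with at least 50 UMIs were higher in dividing cells, where 9.43% of all genes were, and in the creatine library 45 of 51, where 11.1% of all genes were. In both libraries 44 of the 50 tested in both were higher. Dividing cells held most of the UMIs of these genes, so the 50-UMI filter was passed mainly through them and the counts are a description. Hist1h2ap had 70930 UMIs in dividing and 186 UMIs in non-dividing control cells, a log2 ratio of 5.60 (5.39 to 5.81), and 17453 and 46 UMIs in the creatine library, 5.67 (5.25 to 6.12). Since the non-dividing counts of Hist1h2ap are read as background, both ratios may be too low, and they are not compared between the libraries. Hist1h1b had 11060 and 32 UMIs (5.46, 4.96 to 6.01) and, with creatine, 9690 and 17 UMIs (6.25, 5.57 to 7.03). Hist1h3c had 1731 and 2 UMIs in the control library (6.78, 4.93 to 9.83) and 1470 and 0 UMIs in the creatine library, at least 65.6-fold higher against a floor of 3 UMIs over the group.

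A few genes stood apart. Hist3h2a had 93 UMIs in dividing and 15 UMIs in non-dividing control cells, a log2 ratio of -0.34 (-1.14 to 0.55), and 88 and 23 UMIs in the creatine library (-0.97, -1.64 to -0.24). Hist3h2ba, its neighbour on chromosome 11, had 223 and 15 UMIs (0.92, 0.16 to 1.78) and 172 and 15 UMIs (0.62, -0.14 to 1.49). Hist4h4 on chromosome 6 had 85 and 6 UMIs (0.85, -0.33 to 2.33) and 80 and 11 UMIs (-0.04, -0.95 to 1.02). These 3 genes were the ones with at least 50 UMIs that were under 2-fold in both libraries, and they lie on chromosomes 11 and 6. Hist2h4, in the chromosome 3 cluster, was also called in neither library, with 78 and 4 UMIs (1.31, -0.10 to 3.22) and 100 and 7 UMIs (0.94, -0.16 to 2.29). Under the 50-UMI filter Hist2h2be on chromosome 3 (1.91-fold and 1.30-fold) and Hist1h4n on chromosome 13 (1.40-fold and 1.29-fold) were under 2-fold too, so genes of the large clusters were among them. Hist1h1c, a linker histone, was past 2-fold by less than most, with log2 ratios of 1.19 and 1.49.

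Dividing CD8 T cells were also split by which cycle list led. The S-leading cells numbered 795 and 731 and the G2M-leading cells 530 and 374 in the control and creatine libraries. Of the histone genes, 46 of 50 in the control and 47 of 50 in the creatine library were lower in S-leading cells by 1.5-fold, where 5.03% and 5.37% of all genes were, and 0 were higher, where 4.09% and 4.57% of all genes were. Hist1h3a and Hist1h1a were called in neither library. Hist1h3a had 244 S-leading and 215 G2M-leading UMIs in the control (-0.13) and 299 and 200 UMIs with creatine (-0.11). S-leading here means that genes of early S phase such as Mcm5 and Cdc6 led over those of mitosis, and it does not mark the whole of S phase.

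When the same cells were put into 5 bins from S-list-led to G2M-list-led, summed histone UMIs were lowest in bin 1 and highest in bin 4. The S-phase share was 20% to 40% in bin 4. By the cell numbers of the bins, that share was taken after each list was divided by its mean. It is therefore not a share of raw cycle UMIs. The other 66 genes went from 4.88 UMIs per 10000 in bin 1 through 17.2, 33.8 and 38.2 to 36.0 in bin 5 of the control library. In the creatine library they went from 4.84 through 15.5, 30.7 and 39.6 to 30.7. Hist1h2ap went from 3.76 through 24.1, 45.9 and 48.6 to 38.4 in the control library. With creatine it went from 1.16 through 6.73, 11.02 and 14.4 to 10.8. Hist1h2ap was lower in the creatine library in every bin, while the other genes were lower in bins 2, 3 and 5, higher in bin 4 and within overlapping intervals in bin 1. These intervals cover the counting error of summed UMIs and leave out the spread between cells. In S-leading cells alone the log2 ratio of Hist1h2ap, creatine over control, was -1.96 (-2.00 to -1.92), and in G2M-leading cells -1.86 (-1.90 to -1.83). Its median per cell was 1.57 and 0.521 UMIs per 10000 in S-leading cells, but 10.3 and 9.30 in G2M-leading cells. The 90th percentiles of G2M-leading cells were 114 and 27.7. For the other 66 genes the medians were 4.27 and 4.48 in S-leading and 15.8 and 24.2 in G2M-leading cells.

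**Figure D3:**
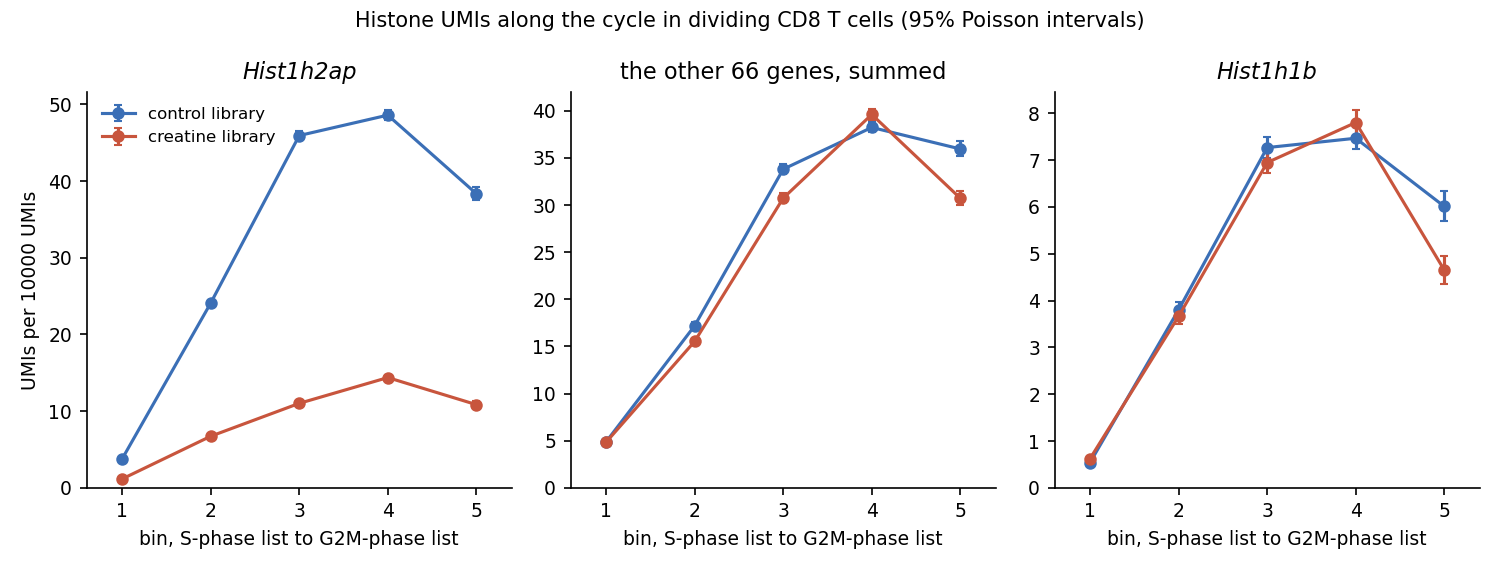
UMIs per 10000 UMIs in dividing CD8 T cells of the control and creatine libraries, in 5 bins ordered from cells led by the S-phase list (1) to cells led by the G2M-phase list (5), for Hist1h2ap, the summed other 66 histone genes and Hist1h1b, each on its own y axis from 0. Error bars are 95% Poisson intervals. Hist1h2ap runs from 3.76 to 48.6 in the control and from 1.16 to 14.4 in the creatine library, while the other panels lie close together.

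The same count was made in the dividing cells of the other gated types. Hist1h2ap was lower in the creatine library in each of the 4 types with at least 50 dividing cells in both libraries. Dividing Tregs (148 and 86 cells, gated on Foxp3) gave 5935 and 1026 UMIs, or 3486 and 1115 CPM, a log2 ratio of -1.64 (-1.74 to -1.55). Dividing NK cells (156 and 188 cells) gave 1122 and 523 UMIs, or 1593 and 349 CPM (-2.19, -2.34 to -2.04). Dividing C1q-high Mono/TAM (281 and 112 cells), a macrophage group with high C1q genes, gave 6848 and 1338 UMIs, or 1211 and 399 CPM (-1.60, -1.69 to -1.52). Dividing conventional CD4 T cells (60 and 53 cells) gave 550 and 406 UMIs, or 1877 and 979 CPM (-0.94, -1.13 to -0.75). Both lymphoid and myeloid cells thus had less of it, and the CD4 interval lay above the intervals of the other types. Among types with fewer dividing cells, C1q-low Mono/TAM (44 and 10 cells) gave 456 and 8 UMIs, and there the other 66 genes were lower too, at 10.6 and 3.64 UMIs per 10000. Dividing cDCs (67 and 16 cells) gave 2366 and 83 UMIs (-2.90), and the other 66 genes 15.9 and 7.17 UMIs per 10000.

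In the 4 types with at least 50 dividing cells in both libraries the other 66 genes were not lower in step with Hist1h2ap. They summed to 27.4 (26.6 to 28.1) and 29.5 (28.4 to 30.6) UMIs per 10000 in dividing Tregs, 16.2 (15.3 to 17.2) and 15.8 (15.2 to 16.5) in NK cells, 9.89 (9.63 to 10.1) and 10.6 (10.3 to 10.97) in C1q-high Mono/TAM and 15.7 (14.3 to 17.2) and 27.6 (26.1 to 29.3) in conventional CD4 T cells. The summed family with Hist1h2ap had a log2 ratio of 0.12 (0.00 to 0.24) in conventional CD4 T cells, which rests on 60 and 53 cells and became -0.06 with dividing cells taken by Mki67 and Top2a and -0.33 after thinning. By the sum of the other 66 genes, NK cells and conventional CD4 T cells had overlapping intervals in the control library. They stood below CD8 T cells and Tregs and above C1q-high Mono/TAM. By the same sum, Tregs and conventional CD4 T cells overlapped and came first in the creatine library, and C1q-high Mono/TAM again came last. The dividing cut is a share of UMIs, so a shallow cell passes it on fewer cycle UMIs. Over all cells of a type, median depths were 3957.5 and 5535 UMIs in NK cells and 3748 and 4832.5 in conventional CD4 T cells. In CD8 T cells they were 9743 and 12085. Cells near the cut (8 to 12 per 10000) numbered 122 and 161 in NK and 37 and 44 in conventional CD4 T. CD8 T cells had 339 and 262 there. The part of the gate in this order was not tested.

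**Figure D4:**
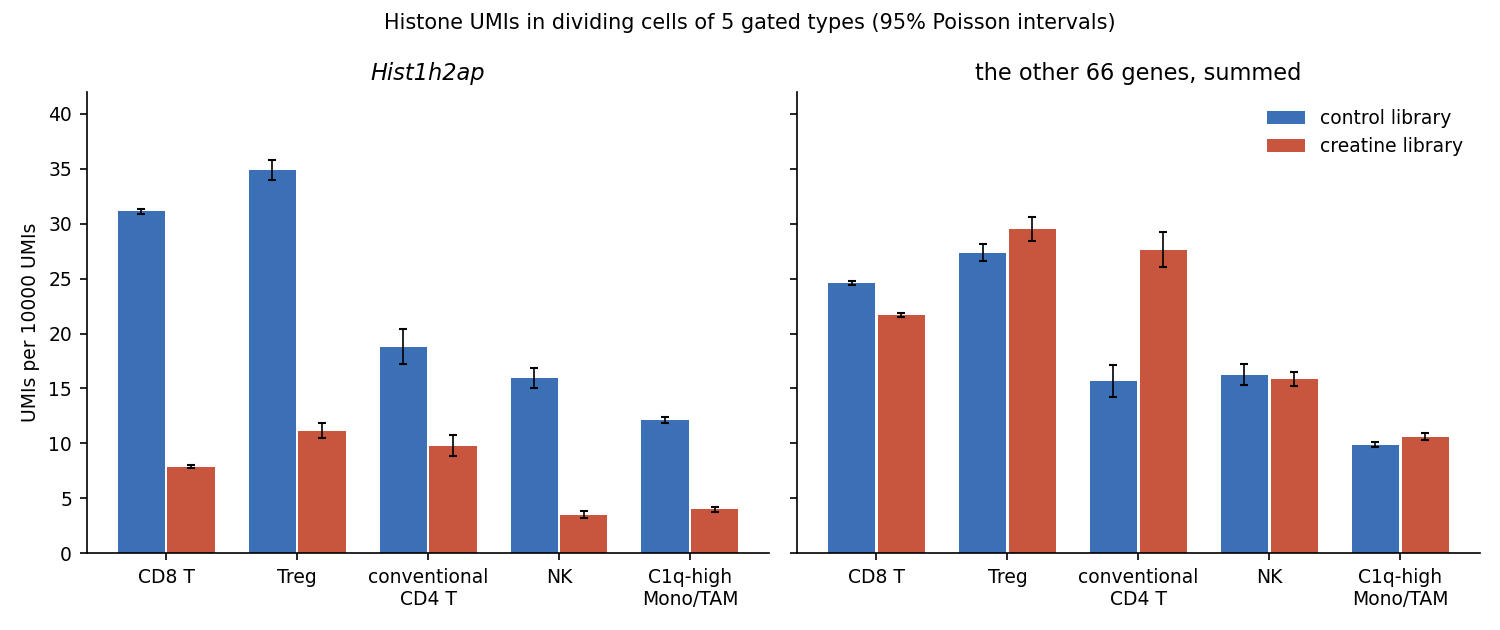
UMIs per 10000 UMIs of Hist1h2ap (left) and of the other 66 histone genes summed (right) in dividing cells of 5 gated types, for the control and creatine libraries, with 95% Poisson intervals. Hist1h2ap is lower in the creatine library in all 5 types. The other genes stand at 15.7 and 27.6 in conventional CD4 T cells.

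Single genes were also counted in the other types. These cells come from the same libraries as the CD8 T cells, so the counts are not repeats. Each count of lower genes includes Hist1h2ap, and none carries weight as evidence. In dividing Tregs 25 histone genes were tested, 5 were called lower, where 2.29% of all genes were, and 4 higher, where 5.68% were. In C1q-high Mono/TAM 30 were tested, 6 were lower, where 3.67% were, and 5 higher, where 2.50% were. In NK cells 16 were tested, 3 were lower, where 4.56% were, and 3 higher, where 5.14% were. In conventional CD4 T cells 8 were tested, 1 (Hist1h2ap) was lower, where 5.13% were, and 5 (Hist2h2ac, Hist1h1b, Hist1h2ae, Hist1h4d and Hist1h1e) were higher, where 5.54% were. Hist1h3b was called lower in CD8 T cells, in Tregs (75 and 19 UMIs, -1.09) and in C1q-high Mono/TAM (66 and 20 UMIs, -0.97), and so was Hist1h3f (79 and 27 UMIs, -0.66, and 96 and 34 UMIs, -0.75). Hist1h2br had 87 and 16 UMIs in C1q-high Mono/TAM (-1.69, -2.56 to -0.91) and 69 and 25 UMIs in Tregs (-0.58, -1.30 to 0.10). Hist1h4d was called higher in 3 types and in neither CD8 T cells nor NK cells. It gave 325 and 352 UMIs in Tregs (1.00, 0.78 to 1.22), 380 and 382 UMIs in C1q-high Mono/TAM (0.76, 0.55 to 0.97) and 51 and 131 UMIs in conventional CD4 T cells (0.86, 0.38 to 1.36). In NK cells there were 112 and 284 UMIs (0.25, -0.07 to 0.58).

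Copies share sequence, which bears on whether a read is counted and for which gene. For each gene the last 500 bases of its models were cut into windows of 90 bases, and the share of windows found in the transcript of another gene was counted. Of Hist1h2ap windows 92.4% occur elsewhere, most often in Hist1h2ao, and 19 genes share at least 1 window. Of the 17 genes called lower 11 had over 50% of their windows shared, of the 6 called higher 5 did, and of the 34 genes not called 7 did. The median shares were 57.4%, 63.5% and 8.27%. In the same order, 12 of 17, 1 of 6 and 27 of 34 models held the stem-loop, and the median model lengths were 508, 396 and 678.5 bases. Among the genes with little shared sequence, Hist1h1b, Hist1h1c and Hist1h4d at 0% were not called, and Hist1h2bc (692 and 429 UMIs) and Hist1h4j (86 and 54 UMIs) at 0% were called lower. The part of shared sequence or of model length in the ratios was not tested.

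**Figure D5:**
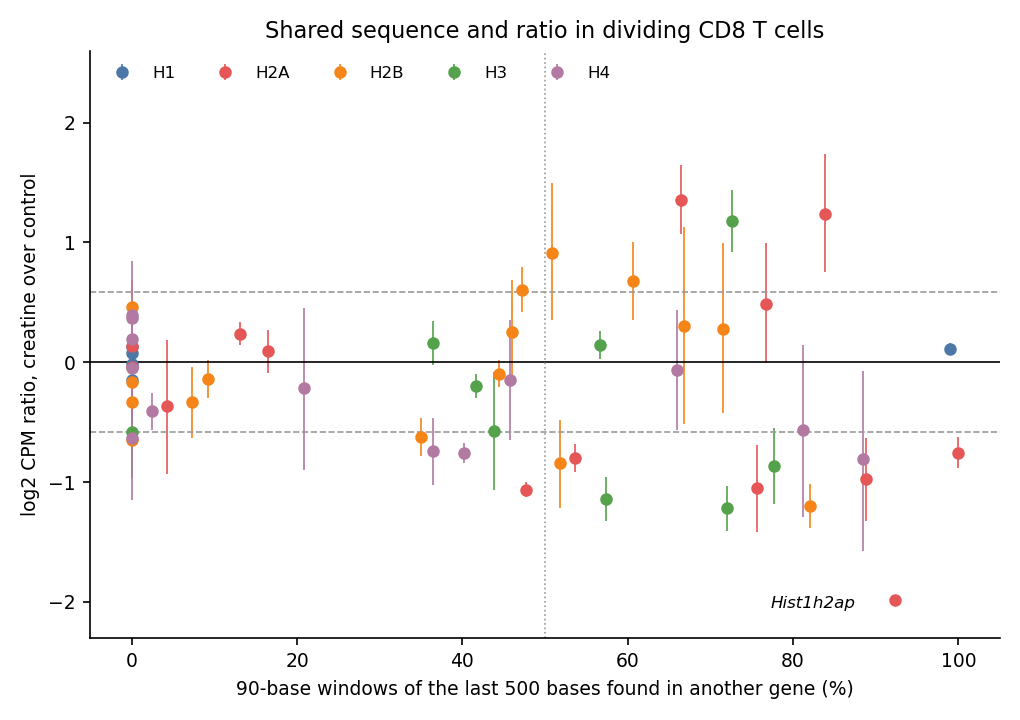
The log2 CPM ratio of creatine over control in dividing CD8 T cells for 57 histone genes (y axis, with 95% intervals) against the percent of 90-base windows in the last 500 bases that occur in another gene (x axis). Dashed lines mark 1.5-fold and the dotted line 50%. Of the 23 genes to the right of 50%, 16 are past 1.5-fold, in both directions.

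Gene models also overlap. In the GENCODE M21 models Hist1h1e and Hist1h2be share exons on the same strand, so 99.0% of Hist1h1e windows are also in Hist1h2be. The counts of both are therefore uncertain, and whether the deposited counts were made with the same models was not checked. Of the 67 genes, 7 overlap an exon of another gene on their strand.

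Many H2A and H2B genes stand head to head and share the stretch between their starts. There were 12 such pairs with starts within 500 bases, and in 9 of them both genes were tested. In 2 of the 9 pairs both genes had a ratio of the same sign. Hist1h2ap and Hist1h2br, with 236 bases between their starts, were one of these, with log2 ratios of -1.98 and -1.20. The opposite held for Hist1h2an and Hist1h2bp (1.24 and -0.84) and for Hist1h2bf and Hist1h2ad (0.91 and -1.05). Hist1h2ae was at -1.06 and its partner Hist1h2bg at 0.25. Calls in both directions fell in the same stretches of chromosome 13, with 6 lower and 3 higher calls in the block that holds Hist1h2ap (15 genes tested) and 9 and 2 in the block from Hist1h4h to Hist1h1a (28 tested). Over all genes tested, 4.00% were called lower and 3.46% higher.

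Promoters from RefSeq (GRCm38.p6, 250 bases before to 50 bases after the start) were matched for 62 of the 67 genes. CCAAT, searched on both strands, was present in 85.5% of them and in 37.4% of all 32851 promoters. By class it was in all promoters of H1, H2A, H2B and H3 genes and in 3 of 12 of H4 genes. TATAAA was in 56.5% against 13.6%, and the octamer ATTTGCAT in 21.0% against 1.74%, with 7 H2A and 6 H2B promoters and no other class. Of the matched genes called lower 12 of 15 held CCAAT, and 6 of 6 called higher. The stretch of 218 bases before the start of the Hist1h2ap model is shown because it lies between the starts of Hist1h2ap and Hist1h2br, the H2A and H2B genes with the lowest ratios among those tested. It is chr13:21833508-21833725, read on the minus strand toward Hist1h2ap, with CCAAT and its complement ATTGG in capitals. Neither TATAAA nor the octamer is present in it.
Hist1h2ap promoter: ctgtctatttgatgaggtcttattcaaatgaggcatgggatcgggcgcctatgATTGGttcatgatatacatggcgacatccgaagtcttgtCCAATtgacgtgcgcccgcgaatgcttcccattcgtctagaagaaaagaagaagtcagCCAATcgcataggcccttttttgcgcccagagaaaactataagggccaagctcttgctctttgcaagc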

How the data were processed

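The authors deposited, for each of the 2 libraries, a matrix of raw UMI counts per gene and cell, made with Cell Ranger 3.0.2 on mm10 per the submitters' processing notes and not normalized. Lists of genes and barcodes come with each matrix and hold no measurement. Cells with at most 25% mitochondrial UMIs were kept and gated on marker genes in a fixed order. No doublet caller was run, and an alternative leaves out the cells with the most UMIs. UMIs were summed per gated population and library and divided by its total (CPM). Ratios carry the exact interval of the count split, levels exact Poisson intervals and shares Clopper-Pearson intervals. The ratio interval and the 1.5-fold call were tested on simulated counts, and the intervals of levels and of shares were not. No test across libraries was made. Members, gene lists and tests were chosen with earlier results of these data known. Named genes were, per class, the 3 with the most UMIs, the highest and lowest ratio among those with at least 200 UMIs, genes under 2-fold between dividing and non-dividing cells, and the 2 with the most UMIs in each comparison list; others are examples chosen after their values were seen. Gene models came from GENCODE M21 and promoters from RefSeq. The models behind the deposited counts may differ from these and were not compared with them. Read assignment between near-identical copies is the authors' and was not revisited. Python 3.11.15, numpy 2.4.6, scipy 1.17.1 and pandas 2.3.3 were used.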

Additional observations from a re-analysis of the deposited data

Results flagged for a closer look

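Hist1h2ae, an H2A gene with a run of A before its stem-loop, went in opposite directions in the dividing cells of different types. Its log2 ratio of creatine over control was -1.06 in CD8 T cells, -1.17 in NK cells, -0.82 in C1q-high Mono/TAM and -0.41 in Tregs. The Treg interval was -0.63 to -0.19. In conventional CD4 T cells the ratio was 0.59 (0.11 to 1.10), with 52 and 111 UMIs. All histone genes but Hist1h2ap summed to 15.7 and 27.6 UMIs per 10000 there, a log2 ratio of 0.82 (0.66 to 0.98). Hist1h2ae was not the only one called higher in those cells. There 5 of 8 tested histone genes were called higher, where 5.54% of all genes were, and that count is a description. With 1 library per group the difference between the types was not tested. The conventional CD4 T value rests on 60 and 53 dividing cells. The ratio of the summed family in those cells, with Hist1h2ap included, changed sign under other choices of dividing cells or depth.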

How the results depend on the processing

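No paired analysis was possible because each group had 1 library. Under 14 alternatives 138 values were recomputed. Of these, 102 were labelled the same, 36 moved and 0 reversed direction from a called value. A change of sign from a value that was not called, such as the H2A median or the conventional CD4 T ratio, was not counted as reversed. Counts of genes and shares of cells have no sign. The 0 therefore does not show that all values kept their direction. Hist1h2ap in dividing CD8 T cells stayed between -2.06 and -1.89 on the log2 scale. It moved past its counting interval without the 5% of cells with the most UMIs (-2.06), with mitochondrial and ribosomal protein genes out of the total (-2.02), per UMI of the cycle lists (-2.05) and with S-leading and G2M-leading cells weighted equally (-1.89). The median of the other H2A genes, -0.04, became -0.55 with cells thinned to 2000 UMIs and -0.76 with at least 200 UMIs per gene, and was above 0 in 5 other settings (0.03 to 0.07). Lower calls numbered 10 of 29 tested after thinning and 6 of 34 among genes with at most 50% of their windows shared, an alternative added after the data were seen. Higher calls numbered 2 and 1 in those settings, and 3 without the cells with the most UMIs. Genes higher in dividing cells of both libraries fell from 44 to 14 after thinning and to 29 with at least 200 UMIs, and genes lower in S-leading cells to 14 and 27, since fewer genes were then tested. The share over all genes was not recomputed in these settings, so the counts only describe the histone genes. The log2 ratio of the summed family was -0.89 and -0.94 with dividing cuts of 5 and 20 per 10000 and -0.97 without the cells with the most UMIs. The share of dividing cells was 43.5% and 44.9% by Mki67 and Top2a and 53.3% and 52.7% without the cells with the most UMIs. In other cell types 14 of 28 recomputed family ratios stayed within their interval. The conventional CD4 T ratio, 0.12, became -0.06 by Mki67 and Top2a and -0.33 after thinning. Depth limits the 10 genes under 50 UMIs and all types with few dividing cells.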

Other observations

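Cells in the melanoma gate (9 and 7 dividing cells, gated on Dct, Tyrp1, Mlana and Pmel) carried a different set of histone UMIs. Hist1h2ap gave 1 UMI of 228269 in the control and 0 UMIs of 316071 in the creatine library, and Hist1h1b gave 1 and 0 UMIs. Hist1h2bc gave 23 and 25 UMIs, Hist1h1c 17 and 20 UMIs and Hist1h1e 13 and 22 UMIs. All 67 genes together stood at 4.03 and 4.33 UMIs per 10000, close to the 3.94 and 3.75 of non-dividing neutrophils.

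Cells that entered no gate, 1770 and 1172 in number, held 782 and 354 dividing cells. Hist1h2ap gave 28683 and 3711 UMIs there, a log2 ratio of -1.97 (-2.02 to -1.92), and the other 66 genes 20.8 and 19.2 UMIs per 10000.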
